A study of Homo sapiens with 12 samples.

Results

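The lactate dehydrogenase genes are LDHA, LDHB, LDHC, LDHD, LDHAL6A and LDHAL6B. All 6 of them, among 59098 genes in the RefSeq gene table (GRCh38.p14), were examined in ATAC-seq peak lists of MIAPaCa2 cells, an established human pancreatic ductal adenocarcinoma line. LDHA is the target of sodium oxamate, the inhibitor used in the study. The members were chosen by name, and for each the peaks overlapping the gene span extended by 5 kb on both sides were collected, which is called the gene window here. Of the 671854 peaks used, 94 lay in these windows. Each list came from 1 library, in which the Tn5 transposase had placed sequencing adapters into open chromatin.

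Parental cells had been left untreated (3 libraries) or treated with oxamate, which the labels give as an LDHA inhibitor (3 libraries). Oxamate-resistant cells had been left untreated (3 libraries) or treated in the same way (3 libraries). The study's methods name phosphate-buffered saline as the vehicle. The resistant cells had survived continuous oxamate culture and came from 1 cell line, and the labels do not say how many selected populations gave the 6 libraries. Neither the labels nor the methods say that replicates were separate cultures, so the p-values measure the spread between these libraries, which may be technical. The lists give no read counts.

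Lactate dehydrogenase converts pyruvate to lactate and back, and in doing so exchanges NADH for NAD+, which lets glycolysis continue. LDHA and LDHB encode the M and H subunits of the enzyme's tetramers, and LDHC encodes a subunit known from testis. LDHD encodes a mitochondrial D-lactate dehydrogenase of a different protein family. LDHAL6A and LDHAL6B are lactate dehydrogenase-like genes also known from testis. Glycolytic tumours commonly express LDHA at high levels, and its promoter is a textbook target of hypoxia-inducible factor and MYC.

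The promoter windows of the family were compared first, because they separate the members most clearly. A promoter window is the stretch from 250 bases before to 50 bases after an annotated start site, as tabulated by RefSeq. The table held 6 windows for 5 of the 6 members, of which LDHA had 2, and none for LDHD. The 250 bases upstream of 4 start sites are shown, since these are the starts called in 12 lists (both of LDHA and that of LDHC) and the start called in 1 list (LDHB). They are written 5′ to 3′ on the gene's strand. Motifs were counted on both strands over the whole window, and capitals mark the upstream matches. The motifs searched were the core of the hypoxia response element, spelled ACGTG, and its variant spelled GCGTG, the E-box spelled CACGTG, which contains the hypoxia core, and the cyclic AMP response element spelled TGACGTCA. The GC box was spelled GGGCGG, the TATA box was spelled TATAAA, and the CCAAT box by its own letters.
LDHA first start, chr11:18394313-18394562, plus strand: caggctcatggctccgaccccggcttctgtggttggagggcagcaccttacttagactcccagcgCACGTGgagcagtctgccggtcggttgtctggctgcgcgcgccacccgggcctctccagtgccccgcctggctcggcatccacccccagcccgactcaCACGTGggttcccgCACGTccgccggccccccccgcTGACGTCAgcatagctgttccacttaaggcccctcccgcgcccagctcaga
LDHA second start, chr11:18396101-18396350, plus strand: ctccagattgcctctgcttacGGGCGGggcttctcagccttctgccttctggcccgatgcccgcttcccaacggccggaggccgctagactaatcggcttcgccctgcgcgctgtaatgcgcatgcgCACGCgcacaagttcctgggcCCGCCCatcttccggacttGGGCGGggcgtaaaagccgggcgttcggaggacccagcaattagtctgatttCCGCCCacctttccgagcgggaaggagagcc
LDHC start, chr11:18412068-18412317, plus strand: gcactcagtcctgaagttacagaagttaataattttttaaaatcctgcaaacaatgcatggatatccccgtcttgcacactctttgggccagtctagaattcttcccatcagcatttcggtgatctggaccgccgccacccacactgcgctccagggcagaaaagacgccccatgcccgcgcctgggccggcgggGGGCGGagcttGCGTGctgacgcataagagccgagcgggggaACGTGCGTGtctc
LDHB start, chr12:21657843-21658092, minus strand: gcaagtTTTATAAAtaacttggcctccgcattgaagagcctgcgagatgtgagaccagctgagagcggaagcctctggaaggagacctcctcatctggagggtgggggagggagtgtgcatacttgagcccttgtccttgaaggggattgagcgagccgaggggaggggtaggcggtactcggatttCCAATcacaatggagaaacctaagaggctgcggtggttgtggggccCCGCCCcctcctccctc

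The 2 LDHA windows held different motif letters. The first window held 5 matches to the hypoxia core, of which 4 came from its 2 E-boxes read on both strands, and 1 match to the cyclic AMP response element. It held 0 GC boxes, whereas the second window held 4 GC boxes and 0 matches to the hypoxia core, the E-box or the cyclic AMP response element. Each LDHA window held 1 match to the variant core, and neither held a TATA box or a CCAAT box. Among 22132 promoter windows of protein-coding genes, 23.1% held the hypoxia core, 8.34% the E-box, 2.26% the cyclic AMP response element and 56.3% the GC box. The LDHC window held 1 match to the hypoxia core, 2 to its variant and 1 GC box. The LDHB window held 1 match to the variant core, 1 GC box, 1 CCAAT box and 2 overlapping matches to the TATA box, found in 43%, 56.3%, 34.6% and 9.46% of coding windows, respectively. A match describes letters in the window and is not evidence of a bound factor.

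Peaks at the start sites fell at opposite ends of the scale within the family. Both LDHA promoter windows and the LDHC window had a peak in 12 of 12 lists, as did 46.7% of coding promoter windows. The LDHB window had a peak in 1 list, which was true of 3.37% of coding windows. The LDHAL6A and LDHAL6B windows had a peak in 0 lists, as did 38.1% of coding windows. No group of libraries differed from another at the LDHA and LDHC starts in presence, since each of the 4 groups had the peak in 3 of 3 libraries. The called starts were richer in CpG dinucleotides, with 29 and 31 in the 2 LDHA windows and 25 in the LDHC window, against 14 in LDHB, 15 in LDHAL6B and 19 in LDHAL6A. Coding windows with a peak in 12 lists held a median of 28 CpG and those with a peak in 0 lists a median of 6, so the LDHB, LDHAL6A and LDHAL6B windows lay between the medians.

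**Figure D1:**
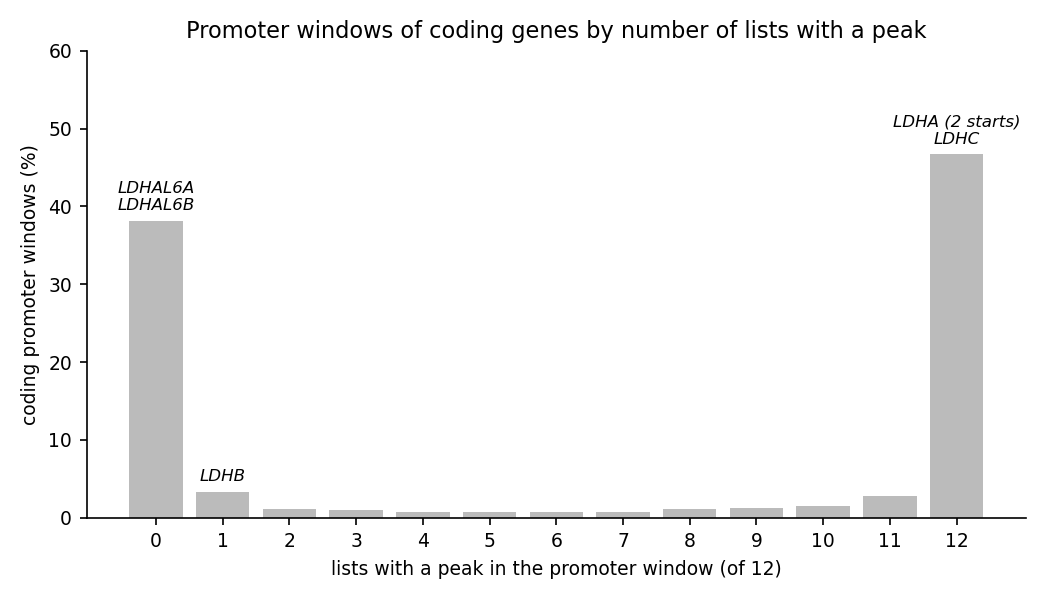
Percent of 22132 promoter windows of protein-coding genes (vertical axis) by the number of the 12 lists with a peak in the window (horizontal axis). The members are written above the bar they belong to: LDHA with 2 starts and LDHC at 12 lists, LDHB at 1 list, and LDHAL6A and LDHAL6B at 0 lists.

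Over whole gene windows, LDHA and LDHD were densely covered and the other members were not. The bases of the window lying in a peak are called covered bases, and they are given here per kb of window. The 5 kb extensions weigh more in short genes, and this was not adjusted for. LDHD spans 4917 bp in a window of 14.9 kb, and LDHC spans 39746 bp in a window of 49.7 kb. LDHA (chromosome 11, 18394563 to 18408425) had 63 peaks and averaged 101.6 ± 26.1 covered bp per kb (SD, n = 12 libraries), above 94.6% of 19974 protein-coding windows. LDHD (chromosome 16, 75111864 to 75116780) had 24 peaks and averaged 96.2 ± 6.99 bp per kb (SD, n = 12), above 93.8% of coding windows. Most covered bases of the LDHD window lay in a region outside the LDHD span that overlaps ZNRF1, with group means of 875 to 961.3 bp. LDHC (chromosome 11, 18412318 to 18452063) had 40 peaks and averaged 24.8 ± 7.61 bp per kb (SD, n = 12), near the coding median of 19.0 bp per kb. Per kb, LDHA stood above LDHD in the 6 resistant libraries and in 2 of 3 untreated parental ones, and below it in the 3 treated parental libraries. Both stood above LDHC, LDHB, LDHAL6A and LDHAL6B in every library.

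The remaining 3 members were nearly bare. LDHB (chromosome 12, 21635342 to 21657842) had 2 peaks, both in treated parental replicate 3. One was 105 bp wide at the start site (chr12:21657775-21657879, −log10 q of 1.22), and the other was 243 bp wide beyond it (chr12:21661440-21661682, −log10 q of 1.36), within 1 kb of an end of KCNJ8-AS1. LDHAL6A (chromosome 11, 18455856 to 18479601) had 1 peak of 150 bp inside the gene, in untreated resistant replicate 1, with a −log10 q of 1.55. LDHAL6B (chromosome 15, 59206843 to 59208588) had 0 peaks. The weakest peaks kept in the lists had a −log10 q of 1, so the peaks at LDHB and LDHAL6A were near that limit. Absence from a list is not absence of accessibility, and the lists give no read counts. With a peak in fewer than 3 libraries, LDHB, LDHAL6A and LDHAL6B entered no test.

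The 94 peaks merged into 16 regions, of which 6 were called in 12 lists, 1 in 10, 1 in 2 and 8 in 1 list. Across all 178040 merged regions of the study, 13.6% were called in 12 lists. Within the LDHA gene, peaks were concentrated at the starts and beyond the far end, and the stretch between held 1 region called in 1 list and 1 region called in 2 lists. LDHC, apart from its start, had 4 regions inside the gene, each called in 1 list, and 3 of those 4 came from treated parental replicate 3. The LDHA and LDHC windows overlap and shared 3 of the 16 regions, so their values are not independent.

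**Figure D2:**
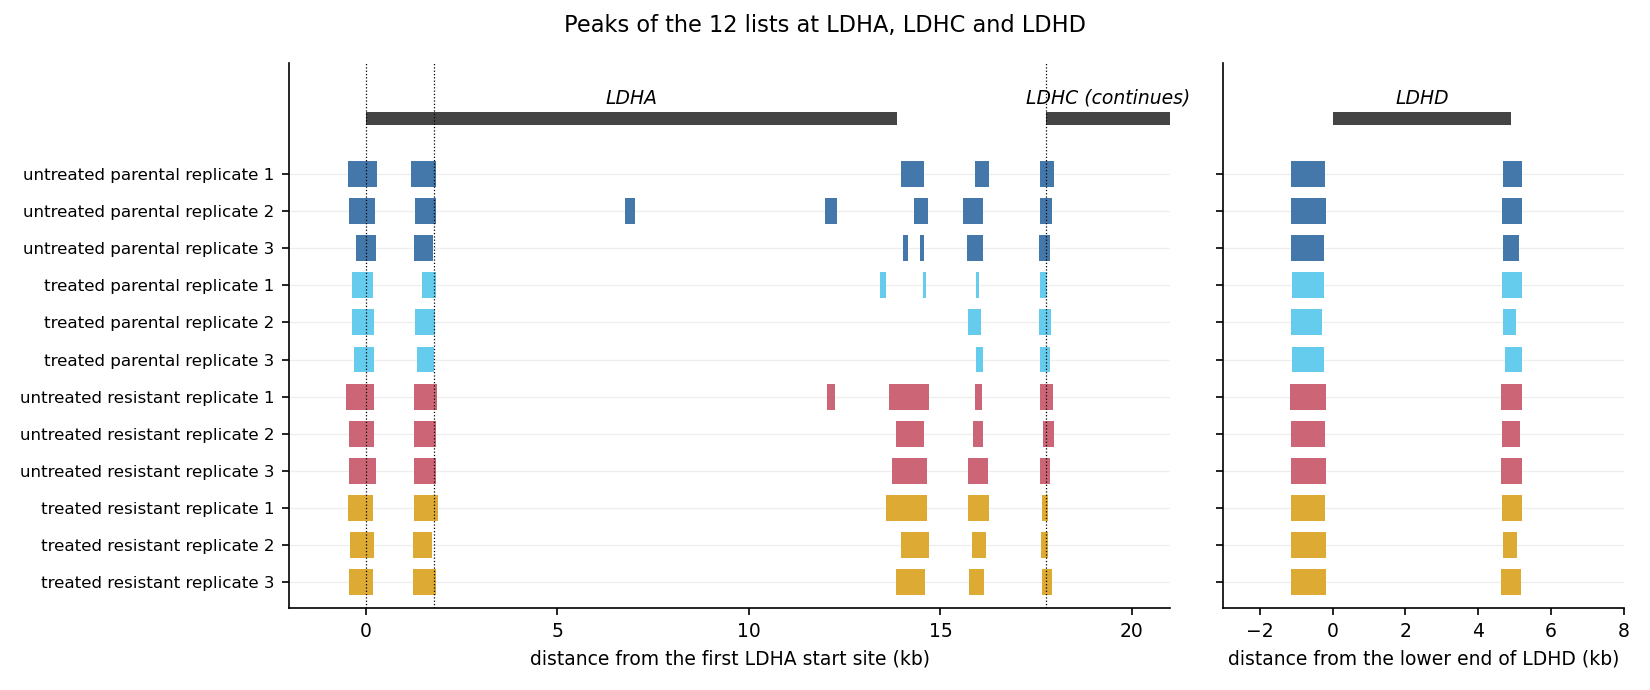
Peaks of each of the 12 libraries (rows, coloured by group) along LDHA and the beginning of LDHC, by distance from the first LDHA start site in kb, and along LDHD, by distance from its lower end in kb. Dark bars are gene spans and dotted lines are the RefSeq start sites. The LDHA and LDHC start regions, the higher end of LDHD and a region just outside its lower end had a peak in all 12 libraries. The block beyond the far end of LDHA was widest in the 6 resistant libraries.

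The covered bases of LDHA were compared between parental and resistant cells and between untreated and treated cells. In untreated parental cells LDHA had 2721, 3019 and 1969 covered bp. In treated parental cells it had 1458, 1740 and 1449 bp. In untreated resistant cells it had 3105, 2530 and 2979 bp, and in treated resistant cells 3091, 2396 and 2627 bp. The 3 treated parental libraries were the lowest of the 12, below all 3 untreated parental libraries and below all 3 treated resistant libraries. Against untreated parental libraries the separation of LDHA was lost in the stricter peak set (−log10 q of 3 or more) and per Mb of peak, and against treated resistant libraries it was lost in both of these and with no extension of the gene span. Such separation was common, since the treated parental libraries lay below the untreated parental ones in 30.8% of the 32585 windows tested and below the treated resistant ones in 44.1%. Untreated and treated resistant libraries overlapped, as did untreated parental and untreated resistant libraries. With 3 against 3 libraries the smallest exact permutation p is 0.1, so these pairs carry no test.

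Over all 12 libraries LDHA averaged 2788 bp in resistant and 2059 bp in parental cells, a difference of 728.7 bp (two-sided exact permutation within treatment, p = 0.03, Benjamini-Hochberg adjusted p = 0.095). Unadjusted p-values under 0.05 in that direction were found in 37.1% of all windows, and adjusted ones in 10.2%. The median difference over all windows was 215.5 bp. Treated libraries averaged 2127 bp and untreated ones 2720 bp, a difference of −593.7 bp (two-sided exact permutation within phenotype, p = 0.045, adjusted p = 0.348). In that direction 12.8% of windows had an unadjusted p under 0.05, and no window passed after adjustment, against 4211 with an unadjusted p under 0.05 in either direction. The treatment difference was −1021 bp in parental and −166.7 bp in resistant cells, and the interaction of 854 bp did not pass (exact permutation p = 0.18, adjusted p = 0.839). LDHA therefore stood among the many windows of these lists that were more widely covered in resistant cells, and did not pass the adjusted threshold for phenotype, treatment or their interaction. With the 45748 top peaks of each list only, the number in the shortest list, the phenotype difference was 633.8 bp and passed (adjusted p = 0.0485 by exact permutation), as did 20.6% of windows in that setting.

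LDHC and LDHD gave the same ranking of groups with smaller differences. LDHC had 1323, 1201 and 1069 bp in untreated parental, 511, 650 and 1061 bp in treated parental, 1567, 1298 and 1696 bp in untreated resistant and 1771, 1257 and 1405 bp in treated resistant cells. As for LDHA, all treated parental libraries lay below the untreated parental and the treated resistant ones. Both separations of LDHC were lost in the stricter peak set, per Mb of peak and with an extension of 1 kb or none, and that from treated resistant libraries also with equal numbers of top peaks. The LDHC phenotype difference was 529.8 bp (exact permutation p = 0.01, adjusted p = 0.0611), and its treatment difference was −249.8 bp (exact permutation p = 0.125, adjusted p = 0.430). Without untreated resistant replicate 2, the phenotype difference of LDHC was 585.4 bp and passed (adjusted p = 0.0399 by exact permutation), as did 20.4% of windows. LDHD had 1490, 1496 and 1344 bp in untreated parental, 1449, 1196 and 1358 bp in treated parental, 1555, 1423 and 1516 bp in untreated resistant and 1507, 1352 and 1526 bp in treated resistant cells. All 4 groups of LDHD overlapped. Its phenotype difference of 91.0 bp (exact permutation p = 0.13, adjusted p = 0.230) and treatment difference of −72.7 bp (exact permutation p = 0.215, adjusted p = 0.497) did not pass.

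**Figure D3:**
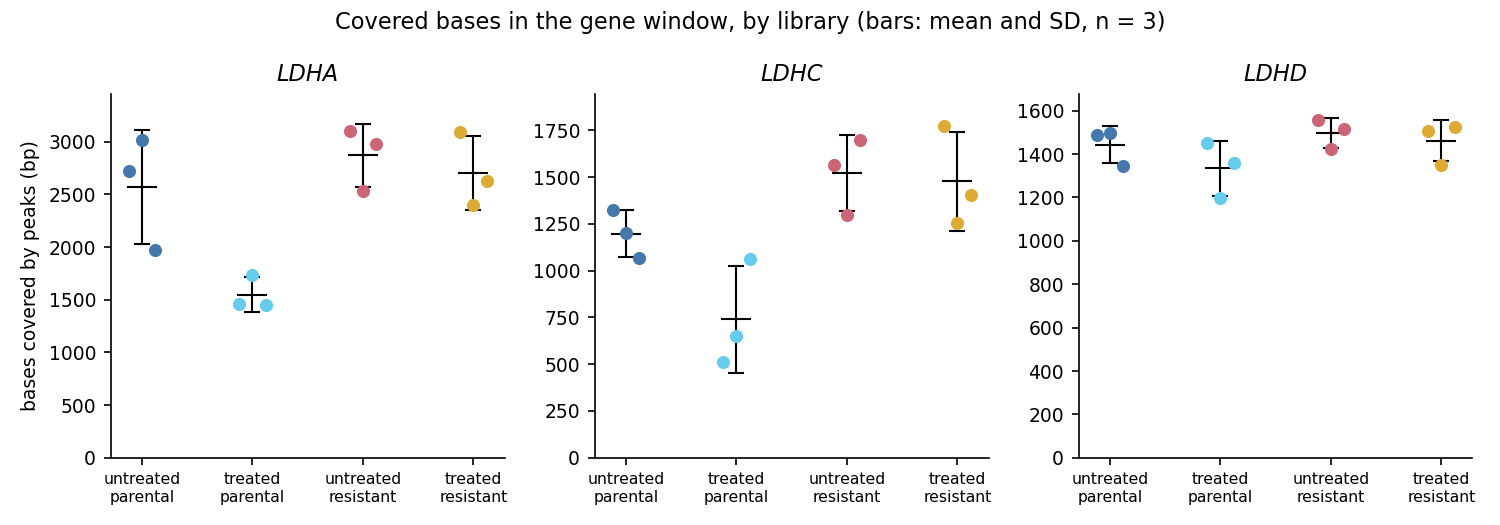
Covered bases (bp) of the LDHA, LDHC and LDHD windows by library (points), with the mean and SD of each group of 3 libraries (bars). The 3 treated parental libraries were the lowest for LDHA, between 1449 and 1740 bp, whereas the groups overlapped for LDHD.

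The width of the lists as a whole moved in the same way as LDHA. Peaks covered between 13.8 and 25.5 Mb in parental lists and between 21.3 and 33.7 Mb in resistant lists, and were narrowest in treated parental lists at 17.2 ± 2.97 Mb (SD, n = 3). The smallest peak width, which follows fragment length in paired-end peak calling, was 67 to 87 bp in parental and 94 to 124 bp in resistant libraries. A background pileup was estimated from the fold and −log10 p shared by the most peaks of a list. Divided by the smallest peak width and set to 1 in the lowest library, it gave a relative depth. This relative depth averaged 1.55 without and 2.27 with oxamate in parental cells, and 1.43 without and 1.08 with it in resistant cells. It was thus highest in the group with the least covered bases, and its part in these differences was not tested. Across the 12 libraries, which share these list properties, covered bases of LDHA had a Pearson r of 0.916 with the Mb covered by the list. Divided by that total, LDHA averaged 99.5 ± 14.2 bp per Mb of peak in parental and 101.4 ± 7.85 in resistant libraries (SD, n = 6), a difference of 1.87 bp per Mb (exact permutation p = 0.77, adjusted p = 0.90). Divided by the smallest peak width, the LDHA difference was 0.058 widths, with an exact permutation p = 0.965. On neither scale, therefore, was a phenotype difference of LDHA detectable. LDHC averaged 46.7 ± 9.55 and 54.5 ± 5.96 bp per Mb, respectively (exact permutation p = 0.175, adjusted p = 0.443). LDHD turned direction on that scale, with 70.7 ± 17.8 bp per Mb in parental and 54.2 ± 5.99 in resistant libraries, with an exact permutation p = 0.01 and an adjusted p = 0.135. Fragment length and phenotype cannot be told apart in these libraries.

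The protein-coding genes outside the family whose covered bases followed LDHA most closely were IGDCC4 (r = 0.984), TBX2 (r = 0.98) and TNRC6A (r = 0.979), over 12 libraries and 14115 genes with a peak in all lists. The median r with LDHA over all these genes was 0.737. An r over 0.9 was found for 968 of the 14115 genes, so the genes named are the highest of many.

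Within the LDHA window, most of the difference between phenotypes lay in 1 region beyond the far end of the gene. This region (chr11:18407978-18409272, 1295 bp) begins before the end of LDHA, and the bases called in most lists, 18409109 to 18409137 in 10 lists, lie past it, between LDHA and LDHC. It measured 596, 373 and 233 covered bp in untreated parental, 257, 0 and 0 bp in treated parental, 1036, 728 and 906 bp in untreated resistant and 1062, 733 and 746 bp in treated resistant libraries. The 6 resistant libraries, at 728 bp or more, all lay above the 6 parental ones, at 596 bp or less, which was seen in 143 of 3238 regions called in 10 lists (4.42%). The 2 libraries without it were treated parental replicates 2 and 3. It accounted for 625.3 of the 728.7 bp between phenotypes, and for −179 of the −593.7 bp between treatments. The region was singled out after its values were seen, and it has no test. None of the 16 regions was called in 5 to 7 lists, the totals at which Fisher's exact test (two-sided, 6 libraries against 6) can reach 0.05, so presence was not tested for the family.

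Its peaks were weak in each list. The best peak there stood between the top 46.7% and the top 87.1% of its own list by −log10 q, and its fold over the local background lay between 2.71 and 3.86. Without the extension of 5 kb, that is over the gene span alone, the LDHA phenotype difference was 66.8 bp (exact permutation p = 0.615, adjusted p = 0.737). For LDHC the direction turned with the extension. Its window shares this region and the next with LDHA, and over the gene span extended by 1 kb, which leaves both out, the LDHC phenotype difference was −150.8 bp (exact permutation p = 0.08, adjusted p = 0.166). Of that, −33.2 bp came from the LDHC start, and the rest from 4 regions each called in 1 parental library, 3 of them in treated parental replicate 3. The LDHC start measured 318.3 ± 36.9 bp without and 248 ± 64.6 bp with oxamate in parental cells, and 304 ± 31.4 bp without and 196 ± 59.2 bp with it in resistant cells (SD, n = 3).

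**Figure D4:**
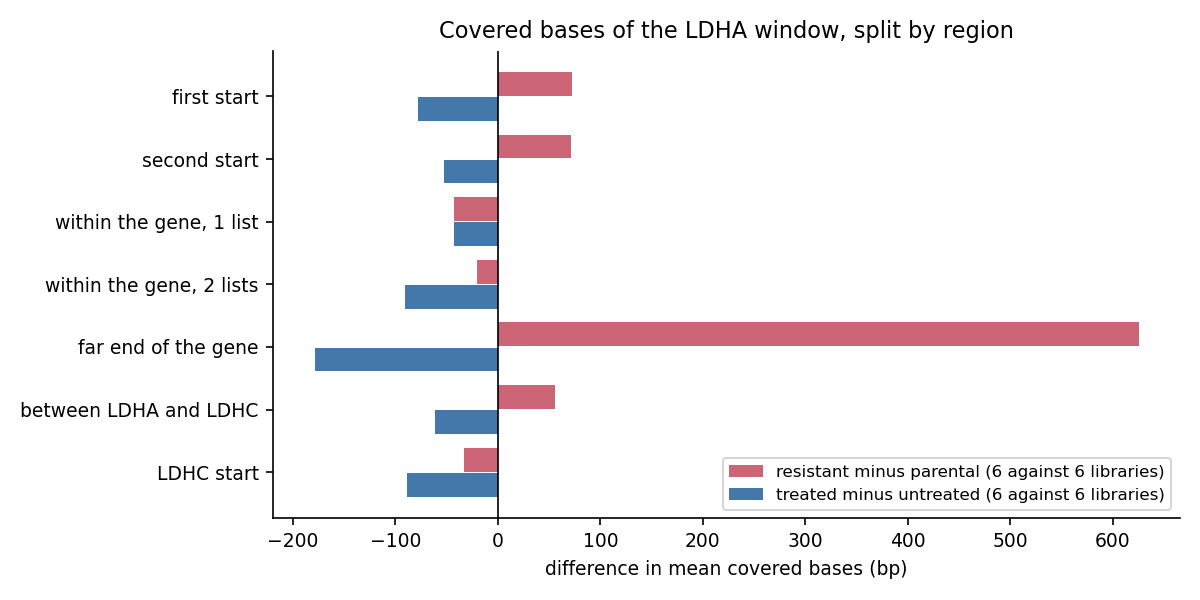
Difference in mean covered bases (bp, horizontal axis) contributed by each region of the LDHA window (vertical axis), between resistant and parental libraries and between treated and untreated libraries, 6 against 6 each. The region beyond the far end of LDHA gave 625.3 bp of the phenotype difference, whereas the first and second starts gave 72.2 and 71.5 bp.

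The LDHA start regions were called in every list, so their strength was compared by the place of the peak in its own list, where a lower top percent is nearer the top by −log10 q. The first start region (chr11:18394043-18394852) had 443 bp common to all 12 lists, from −259 to 183 bp around its start site. The second (chr11:18395742-18396452) had 287 bp common to all lists, from −335 to −49 bp, so its shared part ended before the annotated start site at 18396351, which lay under a peak in 9 of 12 lists. The start sites are 1788 bp apart.

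At the first start, peaks stood in the top 15.9, 8.79 and 10.2% of untreated parental lists and the top 22.2, 9.42 and 14.7% of treated parental lists. They stood in the top 13.7, 12.9 and 17.5% of untreated resistant lists and the top 15.3, 12.5 and 14.3% of treated resistant lists. All groups overlapped, and the phenotype difference of 0.838 percentage points (exact permutation p = 0.725, adjusted p = 0.865) was smaller than the spread within groups.

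At the second start, peaks stood in the top 7.27, 7.04 and 3.60% of untreated parental lists and the top 17.5, 11.6 and 6.96% of treated parental lists. They stood in the top 4.17, 2.71 and 5.18% of untreated resistant lists and the top 4.40, 4.23 and 7.03% of treated resistant lists. The mean was the top 4.62% in resistant and the top 9.00% in parental libraries, with some overlap, a difference of −4.38 percentage points (exact permutation p = 0.03, adjusted p = 0.154). Among the 24148 regions called in 12 lists, 12.9% stood nearer the top in resistant cells at an unadjusted p under 0.05. None passed after adjustment by this permutation test, against 5786 at an unadjusted p under 0.05 in either direction, and the smallest adjusted p was 0.0731. Treated libraries stood 3.63 percentage points further from the top than untreated ones (exact permutation p = 0.075, adjusted p = 0.521). With equal numbers of top peaks the resistant minus parental value was −5.39 points, at an adjusted p of 0.114 by exact permutation. In the stricter peak set, where places are counted in lists cut to unequal lengths, this difference was −11.9 percentage points (adjusted p = 0.0499 by exact permutation), but there 20.03% of regions passed and the first start moved to −6.23 percentage points, so nothing particular to the second start is read from it.

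The second start stood higher than the first in 11 of 12 libraries by fold over the local background, with treated parental replicate 2 as the exception. The log2 fold of the second minus the first start was 0.38, 0.11 and 0.46 in untreated parental, 0.13, −0.06 and 0.34 in treated parental, 0.55, 0.62 and 0.59 in untreated resistant and 0.58, 0.42 and 0.35 in treated resistant libraries. Most resistant libraries lay above most parental ones, with overlap between the lowest resistant and the highest parental values. The mean was 0.52 ± 0.11 in resistant and 0.23 ± 0.20 in parental libraries (SD, n = 6), a difference of 0.29 on the log2 scale (exact permutation p = 0.005, the lowest that 400 assignments can give, and adjusted p = 0.077). The adjustment was over 354 pairs of neighbouring start regions in 338 protein-coding genes, of which 16.1% had an unadjusted p under 0.05 in the same direction and none passed after adjustment, against 100 at an unadjusted p under 0.05 in either direction. By place in the list the difference was −5.21 percentage points (exact permutation p = 0.01, adjusted p = 0.111). This comparison was chosen after the values of the starts were seen. The relation of this difference to fragment length was not tested. Taken singly, the log2 fold differed between resistant and parental libraries by −0.099 at the first start (exact permutation p = 0.245, adjusted p = 0.38). At the second start it differed by 0.195 (exact permutation p = 0.045, adjusted p = 0.138). Over the 24148 regions called in 12 lists the median of this difference was 0.164, so the second start alone stood near the shift of the lists.

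**Figure D5:**
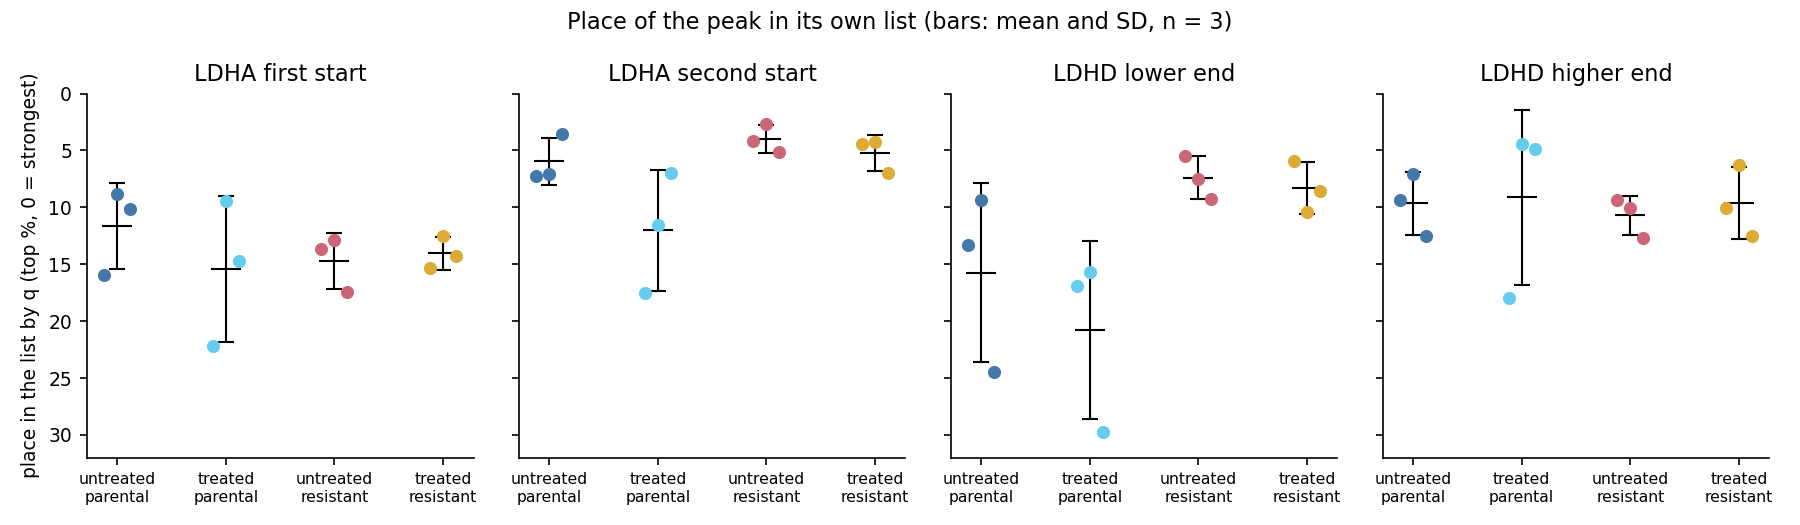
Place of the best peak in its own list by −log10 q (vertical axis, top percent, 0 at the top being the strongest) at the LDHA starts and the LDHD ends, by library (points), with the mean and SD of each group of 3 (bars). The LDHA second start and the LDHD lower end stood nearer the top in resistant libraries on average, at 4.62 and 7.85%, than in parental ones, at 9.00 and 18.3%, whereas the LDHA first start and the LDHD higher end differed by less than 1 percentage point.

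Of the 6 regions called in 12 lists, the lower end of LDHD showed the largest rank difference. This region (chr16:75110702-75111681) lies just outside the LDHD span and overlaps the end of ZNRF1, which encodes a ubiquitin ligase, so it cannot be assigned to either gene from position alone. Peaks stood in the top 13.3, 9.39 and 24.5% of untreated parental, the top 16.9, 15.7 and 29.8% of treated parental, the top 5.47, 7.54 and 9.24% of untreated resistant and the top 5.90, 10.4 and 8.55% of treated resistant lists. The resistant libraries lay nearer the top, with 1 untreated parental library inside their range. The mean difference was −10.4 percentage points (exact permutation p = 0.005, adjusted p = 0.0731). That p is the lowest that 400 assignments can give, and every region at it shares this smallest adjusted p. Of the 24148 regions tested, 12.9% stood nearer the top in resistant cells at an unadjusted p under 0.05. With equal numbers of top peaks the LDHD lower end difference was −13.6 percentage points and did not pass (exact permutation p = 0.005, adjusted p = 0.0554). In the stricter peak set it was −27.3 percentage points (adjusted p = 0.0391 by exact permutation), among the 20.03% of regions that passed there. Covered bases there averaged 937.7 ± 22.4 and 875 ± 29.5 bp in untreated and treated parental libraries (SD, n = 3). They averaged 951.3 ± 25.0 and 961.3 ± 9.45 bp in untreated and treated resistant libraries (SD, n = 3). The lowest mean was that of the treated parental libraries, whose lists were also the narrowest as a whole, at 17.2 ± 2.97 Mb (SD, n = 3). The region at the higher end of LDHD (chr16:75116481-75117075) averaged the top 9.38% in parental and the top 10.2% in resistant libraries, with an exact permutation p = 0.78 and an adjusted p = 0.895.

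The remaining regions called in 12 lists showed no difference that passed. The region between LDHA and LDHC (chr11:18410164-18410832) stood in the top 29.7% in parental and the top 35.5% in resistant libraries on average, with an exact permutation p = 0.15 and an adjusted p = 0.362. The LDHC start (chr11:18412147-18412531) stood lowest of the 3 family starts that were tabulated and called in 12 lists, where LDHD had no tabulated start. It stood in the top 53.6% in parental and the top 59.8% in resistant libraries on average, with an exact permutation p = 0.54 and an adjusted p = 0.745. By library its place ran from the top 22.01 to the top 81.3%, both in treated parental libraries.

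The genes around the lactate dehydrogenase step were read against the family, using a list of 28 genes of pyruvate and lactate supply, use and transport. Of these, 27 were tested, 25 had a peak in the window in 12 libraries, and 20 had a start called in 12 lists. SLC16A7, a monocarboxylate transporter gene, had 0 peaks. EMB had no peak in any parental library and entered the test only through the resistant ones, so it is left out of the counts by phenotype. Of the other 26 genes, 2 were higher in resistant cells after adjustment and 0 lower, which is 7.69% against 10.4% of windows with a peak in both phenotypes. At an unadjusted p under 0.05, 18 of the 26 were higher and 0 lower, which is 69.2% against 37.8%. The median difference over the 26 genes was 427.1 bp, against 215.5 bp over all windows, and by treatment over the 27 genes it was −252 bp against −127.8 bp. No gene of the list passed by treatment after adjustment, where 6 were lower and 0 higher at an unadjusted p under 0.05, which is 22.2% against 12.8% of all windows lower. The windows of the list differ in length and number of peaks from others, and this was not adjusted for.

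The 2 that passed were MPC2 and MDH1 (exact permutation p = 0.005 and adjusted p = 0.0485 for each). MPC2, a subunit of the mitochondrial pyruvate carrier, was higher by 687.5 bp in resistant cells, from 1130 to 1714 bp in parental and from 1766 to 2949 bp in resistant libraries. MDH1, the cytosolic malate dehydrogenase, was higher by 183.7 bp. It ran from 751 to 1107 bp in parental and from 1012 to 1274 bp in resistant libraries, with overlap. EMB encodes embigin, a partner protein of monocarboxylate transporters, and separated as presence against absence, which is given as a description. Its single region (chr5:50440759-50441678, inside the gene) was called in each of the 6 resistant libraries and in 0 of the 6 parental ones. Its window had 297, 273 and 497 bp in untreated resistant and 854, 435 and 663 bp in treated resistant cells. Of 3136 regions called in 6 lists, 6.66% were called in exactly the 6 resistant ones, and presence at EMB did not pass (two-sided Fisher's exact test, adjusted p = 0.0807, the smallest over 9507 regions). The calls of MPC2 and MDH1 stood at the limit of the test. Entering windows with a peak in 1 or more libraries left 0 windows called. So did leaving out any 1 library other than replicate 2 of untreated or of treated resistant cells. Scaling per Mb of peak or per smallest peak width, no extension of the gene span, and permutation within same-numbered replicates also left 0 windows called. MPC2 and MDH1 therefore did not pass once the width of the lists was scaled out.

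Larger differences in the list did not pass. PKM, which encodes the pyruvate kinase of proliferating cells, averaged 2309 bp in parental and 3771 bp in resistant libraries (adjusted p = 0.0611 by exact permutation). SLC16A3, the lactate exporter MCT4, averaged 2441 and 3579 bp (adjusted p = 0.0702 by exact permutation). SLC16A1, the transporter MCT1, averaged 2217 and 2158 bp, a difference of −59.7 bp (adjusted p = 0.894 by exact permutation).

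Marker genes chosen for the labelled line and for other cells gave a mixed picture. VIM had a peak at its start in 12 of 12 lists, KRT8 and KRT18 had peaks in the window in all 12, and KRT8 at the start in 7. Of genes of other cells, CD3E and ALB had 0 peaks and PTPRC a peak in 2 libraries. The INS window had peaks in 12 libraries, none at its start. As deposited the lists held 46401 to 63259 peaks, of which 45748 to 62414 lay on the chromosomes used, and identical peaks made up at most 0.726% in any pair of replicates.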

How the data were processed

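ATAC-seq had been performed on 12 libraries of MIAPaCa2 cells, grouped by the sample titles. The authors aligned to hg38 with Bowtie2 version 2.1.0 and kept unique nuclear alignments without duplicates. Broad peaks came from MACS2 in paired-end mode, 1 library at a time. The MACS2 version is not given in the sources used here. Each deposited list gives a peak's position, the authors' score, their fold enrichment over local background, and the deposited −log10 p and −log10 q. These values rank peaks within 1 list only. The lists hold no counts. A relative depth was estimated from the fold and −log10 p shared by the most peaks, and the 3 libraries of a group set the precision.

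Only chromosomes 1 to 22 and X entered, so 0.892% of peaks were left out. Peaks of the 12 lists overlapping by at least 1 bp were merged into regions. Gene windows were the RefSeq spans extended by 5 kb, tested where 3 or more libraries had a peak (32585 windows). Differences in means were tested by two-sided exact permutation of labels within strata (400 assignments, smallest p 0.005), adjusted over all features by the Benjamini-Hochberg procedure. Such adjusted p-values fall under 0.05 only where many features stand at the smallest p. Covered bases (bp) do not measure signal height. Scripts ran in Python 3.11.15 with numpy 2.4.6, pandas 2.3.3 and scipy 1.17.1, and were checked on simulated data. Alternatives were stricter or equal numbers of peaks, other extensions, scaling, filters, overlap and totals, a replicate block and the omission of 1 library at a time. The named genes were the 6 members, neighbours with an end within 1 kb of a member peak, the 3 genes most like LDHA, and the list genes that passed or had the largest differences, with EMB, SLC16A1 and the far-end region described after their values were seen. The members and lists were chosen with earlier results of these data known. LDHD had no entry in the promoter table.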

Additional observations from a re-analysis of the deposited data

How the results depend on the processing

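Of 392 alternative values of the named results, 30 turned direction and 4 passed where the value with all lists had not. Most named results did not pass with all lists, and many alternatives let no window pass, so the remaining 358 say little on stability. The number of windows called by phenotype after adjustment was the least stable. It was 3358 with all lists, 8368 with the stricter peak set (−log10 q of 3 or more), 6167 with equal numbers of top peaks, 2013 over protein-coding genes only, and 0 with no extension, per Mb of peak, per smallest peak width, with windows called in 1 or more libraries, and with the replicate block. Leaving out 1 library gave 0 to 6561. The permutation test has a smallest p of 0.005, so adjusted counts can drop to 0 at that limit. Windows with an unadjusted p under 0.05 numbered 12243 in the main setting and from 6352 to 14203 in these alternatives. Windows where treated parental lay below untreated parental libraries numbered 6314 with no extension, 3031 per Mb of peak and 6370 per smallest width, and 10035 to 16694 without 1 library. Windows where treated resistant lay above treated parental libraries numbered 9240, 4528 and 5189 under those settings. In the stricter peak set, 3093 regions passed by rank and 307 by presence between phenotypes. The cause was not tested.

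LDHA covered bases ran from 578.5 to 841 bp by phenotype and from −743.8 to −481.3 bp by treatment without 1 library. By phenotype the difference fell to 66.8 bp with no extension, 1.87 bp per Mb of peak and 0.058 smallest widths (exact permutation p = 0.615, 0.77 and 0.965), and it passed by phenotype with equal numbers of top peaks (633.8 bp). The LDHA start difference in log2 fold ran from 0.24 to 0.34 without 1 library and passed in no alternative. Same-numbered libraries correlated in their deviations at r of −0.328 to 0.518, with 4 of 12 pairs over 0.1, so the numbers were not taken to pair samples. With the replicate block (smallest p 0.03125), the adjusted p was 0.224 for LDHA by phenotype, 0.317 by treatment and 0.158 for the LDHA start difference.

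None of the 30 values that turned direction passed the test in either setting. The LDHC differences were −150.8 (phenotype) and −196.3 bp (interaction) at 1 kb, and −112.5, 2.5 (treatment) and −175.7 bp with no extension. The LDHD differences were −16.5, 11.4 and −15.9 bp per Mb of peak, −3.99, 0.59 and −0.69 smallest widths, and −0.33 bp (interaction) with no extension. By rank, in percentage points, the phenotype differences in the stricter peak set were −6.23 (LDHA first start), −6.52 (between LDHA and LDHC) and −3.54 (LDHD higher end). Without treated parental replicate 2 they were −0.667 (LDHA first start), −2.17 (LDHC start) and −0.380 (LDHD higher end), and without treated parental replicate 3 −0.268 at the last. The log2 fold in place of rank gave 0.18 at the LDHD higher end. Values by fold are on the log2 scale, where a positive difference is a stronger peak, opposite to the top percent. The treatment differences were −0.0902 at the LDHA first start without treated parental replicate 1, −4.48 at the LDHC start with equal numbers of peaks and 0.0544 by fold there, −4.72, −0.278 and −1.76 without treated parental replicates 1 and 3 and untreated resistant replicate 2. At the LDHD higher end the treatment differences were −3.84e-05 by fold and 0.339, 0.227 and 0.0166 without treated parental replicates 2 and 3 and treated resistant replicate 2. Without 1 library, the highest phenotype differences by rank were 2.52 at the LDHA first start, 12.7 at the LDHC start and 3.00 at the LDHD higher end. The highest treatment differences were 3.10 and 10.1 at the LDHA first start and the LDHC start, and the lowest at the LDHD higher end was −3.05.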
